A study of Mus musculus with 12 samples.

Results

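The 8 genes described here encode secreted antagonists, decoy and signalling receptors and cytokines that restrain or redirect inflammatory signals: Il1rn, Il13ra2, Il13ra1, Il4ra, Il18, Il18bp, Il10ra and Tgfb1. They were picked by name, selected on account of their function with treatment results of these data already known, out of 23764 genes in the table, and 8 of 8 were found. Gene expression was measured by RNA sequencing of total RNA from RAW264.7 cells, mouse macrophage-like cells of an immortalized line whose labelled strain is Balb/c. All groups received RANKL, a cytokine under which macrophage precursors can become bone-resorbing osteoclasts, and no group without RANKL is analysed here. Vehicle cells received MEM-alpha medium and treated cells received culture supernatant of the bacterium Lactobacillus reuteri, with RNA taken at day 1, 3 or 5. Each of the 6 groups held 2 libraries, 12 in all. The line is a single immortalized line, and the labels do not say whether libraries of a group came from separate cultures, so any p-value measures the spread between libraries, which may be technical.

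Interleukin-1 receptor antagonist, the product of Il1rn, occupies the interleukin-1 receptor without starting a signal. IL-4 signals through IL-4Rα (Il4ra) paired with the common gamma chain or with IL-13Rα1 (Il13ra1), and IL-13 uses the latter pair. IL-13Rα2 (Il13ra2) binds IL-13 tightly with a short cytoplasmic tail and is known mainly as a decoy. IL-18 binding protein (Il18bp) neutralizes the inflammasome-processed cytokine IL-18 (Il18). IL-10R1 (Il10ra) is the ligand-binding chain through which IL-10 quiets macrophages, and Tgfb1 encodes a latent cytokine with opposing roles in bone.

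The libraries were of 2 kinds. Nuclear protein-coding genes took 85.2% to 87.6% of reads in 8 of them, but 38.1% to 48.8% in the vehicle and treated libraries numbered 2 of the later days, 3 and 5. These 4 are called low-mRNA libraries below. Their mitochondrial share was 25.7% to 30.6% (3.64% to 5.97% elsewhere), and they held 8071160 to 10724569 reads on genes (13812078 to 16781080 elsewhere). Normalized counts sum to the same total in every library, so a level in a low-mRNA library is not comparable with one outside that kind, and treated libraries are set against the vehicle library of the same kind. In these bulk samples, fewer cells of a type and less RNA per cell cannot be told apart. All 9 macrophage markers were in the table, with a summed normalized count of 20348 to 331069, the highest of which came mostly from Lyz2. The 8 osteoclast markers summed to 2285 to 2633 at day 1 and 8399 to 11213 at day 3 (low-mRNA libraries 3128 to 5319). At day 5 they summed to 2504 to 2697, against 15183 to 17134 in the low-mRNA libraries, so the libraries of that day differed in osteoclast markers as well. Dendritic cell markers summed to 220 to 2002, mostly from Itgax, which macrophages also express. Neutrophil, fibroblast or osteoblast, T cell, B cell and epithelial markers summed to at most 202, 103, 42.1, 10.1 and 15.5.

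Upstream sequence is shown for the genes on which the results turn: both IL-13 receptor chains, since one varied widely and the other little, and Il1rn, which the table lists with 3 starts. RefSeq sequences (GRCm38.p6) matched 7 of the 8 genes, with no entry for Il10ra. Stretches run 5′ to 3′ toward the transcript start, without bases in annotated exons, and capitals mark matches on either strand to an AP-1 motif (TGANTCA), a STAT motif (TTC and GAA 3 or 4 bases apart) or a PU.1 motif (GAGGAA).
Il13ra2, chrX:147429193-147429442, minus strand: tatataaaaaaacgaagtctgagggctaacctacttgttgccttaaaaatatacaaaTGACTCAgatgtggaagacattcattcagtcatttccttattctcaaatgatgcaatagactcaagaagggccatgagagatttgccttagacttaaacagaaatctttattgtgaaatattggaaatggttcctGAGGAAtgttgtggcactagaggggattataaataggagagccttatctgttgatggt
Il13ra1, chrX:36111858-36112107, plus strand: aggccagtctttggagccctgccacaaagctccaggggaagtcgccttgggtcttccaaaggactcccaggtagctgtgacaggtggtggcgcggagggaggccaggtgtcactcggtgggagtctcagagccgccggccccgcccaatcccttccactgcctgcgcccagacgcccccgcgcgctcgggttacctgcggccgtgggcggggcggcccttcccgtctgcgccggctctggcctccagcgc
Il1rn, first start, chr2:24336610-24336852, plus strand: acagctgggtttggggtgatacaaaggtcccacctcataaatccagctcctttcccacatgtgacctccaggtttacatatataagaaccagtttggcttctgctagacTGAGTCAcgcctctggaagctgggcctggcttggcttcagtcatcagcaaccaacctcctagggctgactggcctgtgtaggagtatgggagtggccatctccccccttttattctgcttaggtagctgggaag
Il1rn, second start, chr2:24345041-24345287, plus strand: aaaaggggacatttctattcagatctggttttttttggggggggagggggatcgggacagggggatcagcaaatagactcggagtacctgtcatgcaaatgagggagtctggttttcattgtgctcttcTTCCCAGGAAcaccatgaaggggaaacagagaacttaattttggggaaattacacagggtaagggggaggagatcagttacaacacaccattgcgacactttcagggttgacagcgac
The Il13ra2 stretch had a G+C content of 36% with 1 CpG, whereas that of Il13ra1 had 70.8% with 21 CpGs. The stretch of Il18 (not shown), a gene with a narrow range of levels, had 35.6% with 1 CpG. Any link between base content and range was not tested. In the stretch of Il13ra2 the AP-1 letters TGACTCA lie at -193 to -187 from the start and the PU.1 letters at -58 to -53. At the first Il1rn start the AP-1 letters TGAGTCA lie at -141 to -135. At the second start the STAT letters TTCCCAGGAA lie at -121 to -112. Over 32851 upstream windows of 250 bases, 6.75% held the AP-1 motif, 5.85% the STAT motif with 4 bases between its parts, 7.02% that with 3 and 23.3% the PU.1 motif. A TATA box (TATAAA) lies at -31 to -26 of Il13ra2, and 12.4% of windows hold one. These motifs had no match in the Il13ra1 stretch, which says only that their letters are not in this window.

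Per kilobase of exon, the median level over the 8 libraries that are not low-mRNA was highest for Il13ra2, at 266 normalized counts per kb (range 23.3 to 1172), followed by Tgfb1 at 262 (228 to 380), Il13ra1 at 186 (145 to 268) and Il1rn at 180 (138 to 647). Il10ra followed at 93.3 (78.3 to 344), Il18 at 66.8 (49.6 to 75.0), Il4ra at 7.67 (4.42 to 16.7) and Il18bp at 2.76 (1.98 to 3.95). The ranges of Il13ra2, Tgfb1, Il13ra1, Il1rn and Il10ra overlapped from one to the next in this order, while those of Il10ra, Il18, Il4ra and Il18bp were separate. Il13ra2 covered the widest range and Tgfb1, Il13ra1 and Il18 narrow ones. Of the 8 genes, 8 passed the filter (a mean of at least 10 normalized counts in at least 1 group). Il18bp passed only through vehicle cells of day 1, with 0 to 14 reads in any library, so its values carry the largest counting error. The filter thereby favours lower Il18bp values in any comparison against that group, and no direction is read from them.

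**Figure D1:**
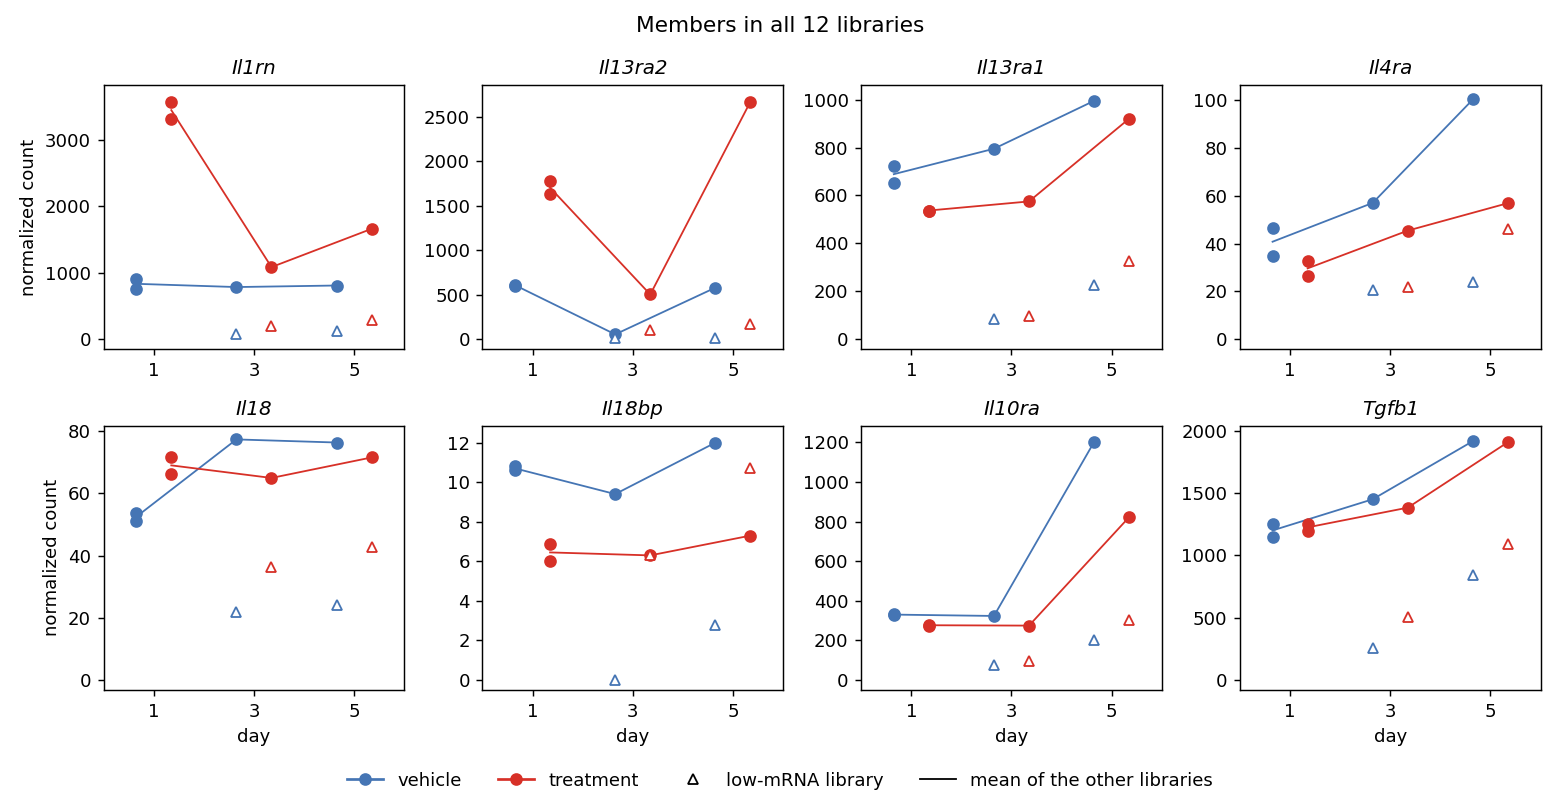
Normalized counts (vertical axes, 1 scale per gene) of the 8 genes at days 1, 3 and 5. Each symbol is 1 library, triangles are low-mRNA libraries and lines join the means of the others; treated Il1rn is highest at day 1 (3581.7 and 3321.9) and vehicle Il13ra2 drops to 53.1 at day 3.

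Il1rn, the gene of the interleukin-1 receptor antagonist, had its highest levels in treated cells at day 1. Its counts are per gene and do not separate transcripts of its 3 starts. The treated libraries held 3581.7 and 3321.9 normalized counts (3452 ± 184, SD, n = 2), and the vehicle libraries 905.8 and 761.2 (833.5 ± 102, SD, n = 2). The difference was 4.15-fold. The treated library of day 3 held 1085.4 against 784.5, and in the low-mRNA pair 198.4 against 72.0. At day 5 the pairs were 1662.6 against 807.9 and 290.3 against 124.3. Thus the treated library was the higher one in each pair of a kind at each day, by 0.47 and 1.45 on the log2 scale at day 3 (the second in the low-mRNA pair) and by 1.04 and 1.22 at day 5. The median gene of the low-mRNA pairs also lay higher under treatment, by 0.46 at day 3 and 0.23 at day 5, against -0.01 and -0.09 in the other pairs. Scaled to nuclear protein-coding reads, the differences of Il1rn in the low-mRNA pairs were 1.15 and 0.97.

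Vehicle Il1rn stayed between 761.2 and 905.8 in the libraries that are not low-mRNA, while the treated values went from 3581.7 and 3321.9 to 1085.4 and then 1662.6. The treatment effect of Il1rn was 1.10 smaller at day 3 than at day 1 on the log2 scale (-1.10), and 0.92 smaller at day 5 (-0.92). The interleukin-1 cytokines whose receptor it blocks were near absent: Il1b reached at most 8.3 normalized counts in any library and Il1a at most 7.7. The signalling receptor Il1r1 was at 0 in 11 of 12 libraries and at 0.9 in the other.

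Il13ra2, the IL-13 decoy receptor, was higher under treatment in each pair of a kind at each day. At day 1 it held 1630.2 and 1780.3 normalized counts in treated cells (1705 ± 106, SD, n = 2) and 602.1 and 611.3 in vehicle cells (607 ± 6.51, SD, n = 2). The difference was 2.81-fold. The treated library of day 3 held 502.4 against 53.1 in the vehicle library, and the low-mRNA pair 102.4 against 13.2. At day 5 the values were 2672.9 against 578.8 and, in the low-mRNA pair, 164.7 against 15.5. On the log2 scale these differences were 3.22 and 2.86 at day 3 and 2.21 and 3.32 at day 5, the second value being the low-mRNA pair each time. The vehicle low-mRNA value of day 3 rests on 9 reads.

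Il13ra1, the signalling chain that shares the ligand, ranged from 537.1 to 995.6 normalized counts outside the low-mRNA libraries. Vehicle libraries held 724.8 and 653.5 at day 1 (689 ± 50.4, SD, n = 2) and treated libraries 537.1 and 537.3 (537 ± 0.141, SD, n = 2). The treated value at day 3 was 575.2 against 795.4, and in the low-mRNA pair 94.5 against 83.8. At day 5 the pairs were 921.2 against 995.6 and 324.7 against 227.5. The treated library was thus lower outside the low-mRNA pairs and higher within them in normalized counts, by 0.17 at day 3 and 0.51 at day 5 on the log2 scale, where the median gene lay higher by 0.46 and 0.23. Scaled to nuclear protein-coding reads, these differences were -0.13 and 0.26.

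Because both chains were read in the same library, their ratio per kilobase does not depend on how a library was scaled. Il13ra2 stood at 1.35 and 1.52 times Il13ra1 in vehicle cells of day 1 and at 4.94 and 5.39 times in treated cells. At day 3 the ratio was 0.109 in the vehicle library and 1.42 in the treated one, and 0.257 and 1.76 in the low-mRNA pair. At day 5 it was 0.946 and 4.72, and 0.111 and 0.826 in the low-mRNA pair. The treated library had the higher ratio in each pair of a kind, and both vehicle libraries of day 3 lay below 1.

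**Figure D2:**
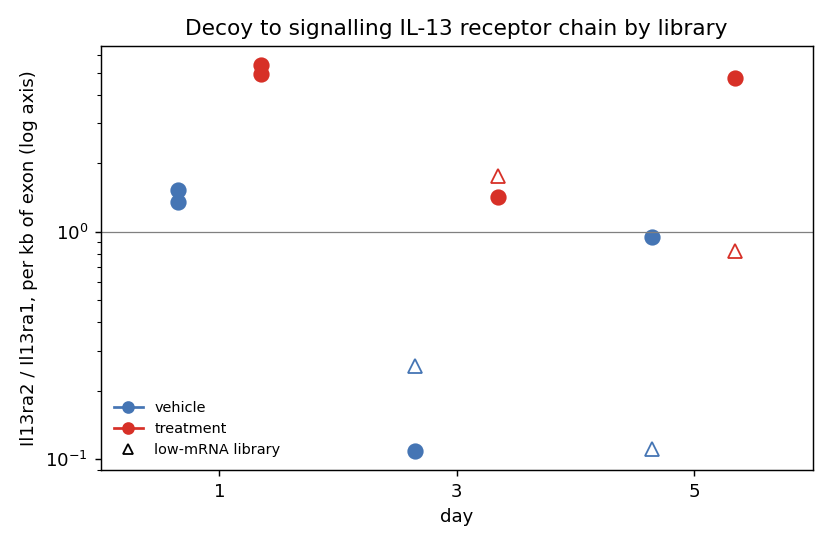
Ratio of Il13ra2 to Il13ra1 per kb of exon (vertical, log axis) by day, 1 symbol per library, with low-mRNA libraries as triangles and a line at a ratio of 1. Treated libraries lie above the vehicle library of the same kind at each day, from 1.42 against 0.109 at day 3 to 4.72 against 0.946 at day 5.

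Il4ra, the chain shared by both IL-4 receptor types, was low throughout. Vehicle libraries of day 1 held 34.8 and 46.7 normalized counts (40.8 ± 8.41, SD, n = 2) and treated libraries 32.7 and 26.5 (29.6 ± 4.38, SD, n = 2). The gap between the groups was smaller than the spread within the vehicle group. At day 3 the pairs were 45.4 (treated) against 57.0 and 22.0 against 20.6, and at day 5 they were 56.9 against 100.3 and 46.2 against 24.0, the low-mRNA pair second. The pairs of day 5 thus pointed in opposite directions, by -0.81 and 0.92 on the log2 scale. In the low-mRNA pair the median gene lay at 0.23, and Il4ra at 0.68 when scaled to nuclear protein-coding reads. That value rests on 39 treated and 17 vehicle reads. The antisense gene Gm44876 overlaps 571 exon bases of Il4ra and no strand setting is stated, so their reads cannot be told apart.

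At day 1 Il18 was higher in treated cells, with a fitted 95% interval that included 0 (-0.32 to 1.09). Il18 held 66.2 and 71.9 in treated cells (69.0 ± 4.03, SD, n = 2) and 53.8 and 51.2 in vehicle cells (52.5 ± 1.84, SD, n = 2). At day 3 the pairs were 65.0 (treated) against 77.4 and 36.2 against 22.0 (low-mRNA), and at day 5 they were 71.6 against 76.4 and 42.7 against 24.0. Treated Il18 was therefore higher at day 1 and in the low-mRNA pairs and lower in the other pairs. The low-mRNA pairs differed by 0.69 and 0.80 log2 units at days 3 and 5, where the median gene lay at 0.46 and 0.23. Scaled to nuclear protein-coding reads, they differed by 0.40 and 0.57. Il18bp held 6.9 and 6.0 in treated cells of day 1 (6.45 ± 0.636, SD, n = 2) and 10.6 and 10.8 in vehicle cells (10.7 ± 0.141, SD, n = 2). The day 3 values were 6.3 against 9.4 and, in the low-mRNA pair, 6.3 against 0.0, where a count of 0 allows up to 4.41 normalized counts (3 reads). At day 5 they were 7.3 against 12 and 10.7 against 2.8. The fitted differences of Il18bp rest on these few reads, and 80 exon bases of Il18bp lie on the opposite strand to exons of the far more abundant Numa1, whose reads cannot be separated from its own there.

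Il10ra, the IL-10 binding chain, was lower under treatment in each comparison outside the low-mRNA pairs. Treated cells of day 1 held 279.3 and 273.8 (277 ± 3.89, SD, n = 2) and vehicle cells 329.5 and 331.2 (330.4 ± 1.20, SD, n = 2). The pairs of day 3 were 274.7 (treated) against 323.5 and 94.5 against 75.0 (low-mRNA), and those of day 5 were 823.1 against 1202.7 and 302.2 against 203.5. The low-mRNA pairs differed by 0.33 at day 3, under the 0.46 of their median gene, and by 0.57 at day 5, and by 0.03 and 0.32 when scaled to nuclear protein-coding reads. Its ligand Il10 reached at most 3.1 normalized counts in any library. Tgfb1 held 1252.9 and 1197.7 in treated cells of day 1 (1225 ± 39.0, SD, n = 2) and 1147.4 and 1254.0 in vehicle cells (1201 ± 75.4, SD, n = 2), and these groups overlapped. At day 3 its pairs were 1383.6 (treated) against 1451.0 and 508.6 against 258.7 (low-mRNA). At day 5 they were 1909.5 against 1917.6 and 1092.6 against 840.7, so treated Tgfb1 was within 0.07 log2 units of vehicle outside the low-mRNA pairs of days 3 and 5 (-0.07 and -0.01) and higher within them (0.97 and 0.38, or 0.67 and 0.13 when scaled to nuclear protein-coding reads).

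All genes were fitted together with limma on log2(normalized count + 1), with a mean per group and a term for low-mRNA libraries at day 3 and at day 5, and calls were made at a Benjamini-Hochberg adjusted p under 0.05 over 14715 genes. The members were chosen with these treatment contrasts known, so their values here are a description and their counts of calls carry no test. At day 1, 1 of 8 was called (Il1rn, log2 difference 2.05, SE 0.22), beside 0.0408% of all genes, and Il13ra2 followed at 1.49 (SE 0.24). At day 3, 1 of 8 was called (Il13ra2, 3.04, SE 0.24), beside 0.068% of all genes, and Il1rn stood at 0.96 (SE 0.22). At day 5, 1 of 8 was called (Il13ra2, 2.76, SE 0.24), beside 0.408%, and Il1rn stood at 1.13 (SE 0.22). The other 6 genes had intervals that included 0 at each day, although in the 8 libraries that are not low-mRNA Il13ra1 was called as lower at day 1 (-0.36) and Il10ra as lower at day 5 (-0.55). Their values ran from -0.66 (Il18bp) to 0.39 (Il18) at day 1, from -0.15 (Il13ra1) to 1.18 (Il18bp) at day 3 and from 0.01 (Il10ra) to 0.49 (Il18bp) at day 5. At days 3 and 5 each value is the mean of 2 pairs, and that of Il18bp at day 3 rests on the vehicle library at 0 reads.

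These calls depended on single libraries and settings. That of Il1rn at day 1 was lost without any one of the 4 libraries of day 1, vehicle replicate 1 or 2 of day 5 or treated replicate 1 of day 5, with differences of 1.93 to 2.18, and also with a replicate block and without the filter on low values. Those of Il13ra2 were lost without vehicle or treated replicate 2 of the day in question, at 3.22 for day 3 and 2.21 for day 5, and without that filter. Without vehicle or treated replicate 1 of day 3, that day's difference is the low-mRNA pair alone, where the median of all genes lay at 0.46. Il1rn (1.45), Il18bp (2.87) and Tgfb1 (0.97) were then also called at day 3, so these calls are not read as particular to them. Without any one library of day 3, Il1rn was also called at day 5. Without replicate 2 of day 5 in either arm, Il13ra2 was called at day 1. No call of a member at these days was made when low-mRNA libraries had no term.

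**Figure D3:**
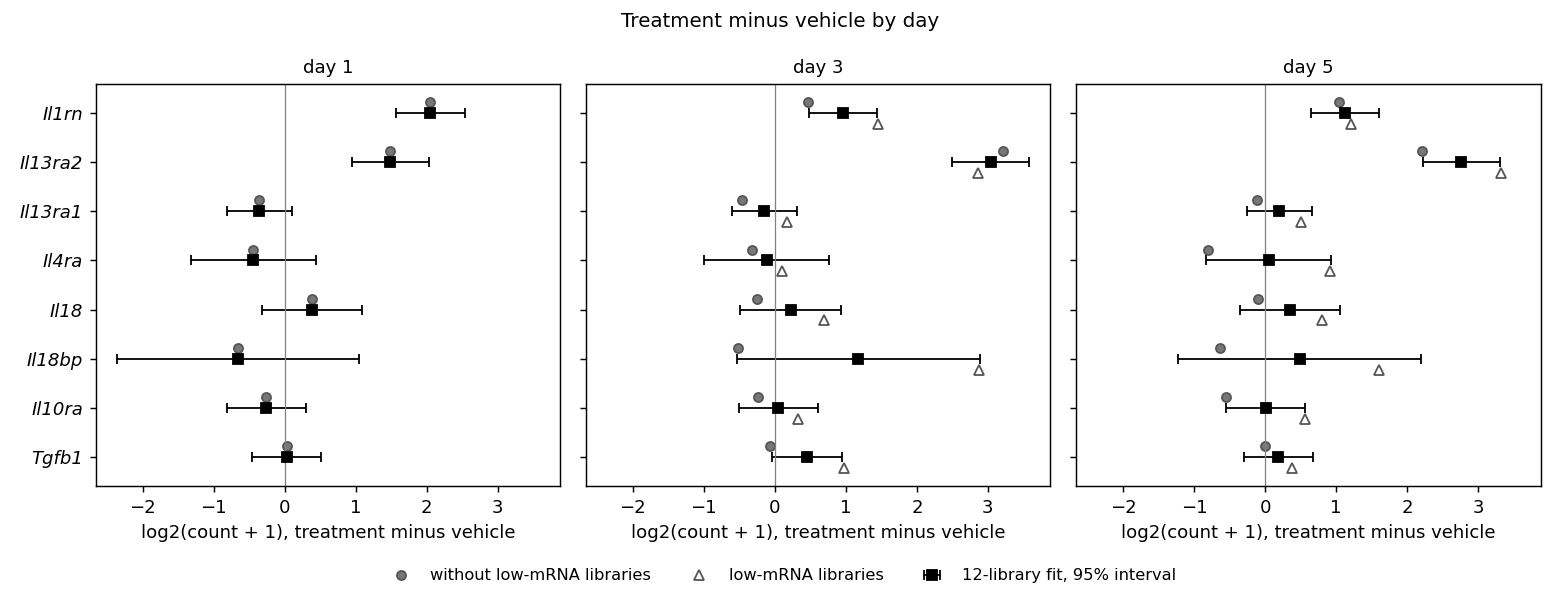
Treatment minus vehicle in log2(normalized count + 1) for the 8 genes at each day. Squares with bars are the 12-library fit with its 95% interval, circles the difference without low-mRNA libraries and triangles that in the low-mRNA pair; Il13ra2 lies at 1.49, 3.04 and 2.76 in the fit, and the intervals of the genes other than Il1rn and Il13ra2 include 0 at each day.

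An F test over both differences from day 1 asked whether the treatment effect changed with the day. It called 0 of 8 members and 0.0% of all genes, with 701 genes at an unadjusted p under 0.05 and 29 called by limma-voom on recovered reads. This test is built from the treatment contrasts that were known, so for the members nothing is read from it. The fitted effect of Il13ra2 was 1.55 larger at day 3 and 1.28 larger at day 5 than at day 1.

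Earlier results for time in vehicle cells were also known when the genes were chosen, and these contrasts share the vehicle libraries with those for treatment, so the members' values are again a description with no test. Il13ra2 was lower at day 3 than at day 1 in vehicle cells, going from 602.1 and 611.3 to 53.1 normalized counts, and to 13.2 in the low-mRNA library. In limma the difference was -3.40 log2 units (95% interval -4.01 to -2.79), 10.6-fold lower, and 1 of 8 members was called, beside 2.87% of all genes (0.87% higher and 2.0% lower). The call held in each of the 12 fits that left out 1 library, and was lost without the term for low-mRNA libraries (-4.45). The low-mRNA library lay 4.30 log2 units below day 1 (-4.30) when scaled to nuclear protein-coding reads, where its median gene lay at -0.54. The other 7 members were not called, with values between -1.02 (Il18bp) and 0.39 (Il4ra). Without vehicle replicate 1 of day 3, Il1rn was called as lower (-1.06), in a fit whose median of all genes lay at -0.42. Osteoclast markers, whose sums at day 3 are given above, were higher at that day, and their part in the difference was not tested.

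At day 5 vehicle Il13ra2 stood at 578.8 in one library and 15.5 in the low-mRNA library, that is, near the level of day 1 in the first (-0.07) and far below it in the second (-5.20, or -4.17 scaled to nuclear protein-coding reads). Treated cells showed the same split, at 2672.9 and 164.7 (0.65 and -3.36 against treated day 1). The fit gave -0.35 (95% interval -0.95 to 0.26) for vehicle cells and did not call it. The libraries with the low values were also those with osteoclast marker sums of 15183 to 17134, against 2504 to 2697, and the part of this difference in the result was not tested.

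Il10ra was higher in the day 5 vehicle library that is not low-mRNA than at day 1. It held 329.5 and 331.2 at day 1, 323.5 at day 3 and 1202.7 at day 5. In limma the difference was 1.58 log2 units (95% interval 0.96 to 2.20), or 2.99-fold, and 1 of 8 members was called, beside 2.93% of all genes (1.62% higher and 1.31% lower). The low-mRNA library of day 5, with 203.5, lay below day 1 (-0.70), and at 0.36 when scaled to nuclear protein-coding reads. Without vehicle replicate 1 of day 5 the value was 0.75 and the call was lost, as it was without either vehicle library of day 1 (1.58 and 1.59), with a replicate block, without the filter on low values and without the term for low-mRNA libraries (0.58). Marker sums also differed in vehicle replicate 1 of day 5: the 9 macrophage markers summed to 331069 normalized counts, against 136365 and 123805 at vehicle day 1, the 4 dendritic cell markers in the table to 770.2 against 220.4 and 253.1, and the 4 neutrophil markers to 149.1 against 26.5 and 30.5. In that library these sums came mostly from Lyz2, Itgax and Csf3r, so each lies close to the level of a single gene. The part of these differences in the value of Il10ra was not tested. Treated Il10ra stood at 823.1 and 302.2 at day 5, against 279.3 and 273.8 at day 1.

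The remaining members were not called for day 5. Il4ra went from 34.8 and 46.7 to 100.3 in vehicle cells (24.0 in the low-mRNA library), a fitted 0.86. Tgfb1 went from 1147.4 and 1254.0 to 1917.6 (840.7), a fitted 0.58, and Il13ra1 to 995.6 (227.5), a fitted 0.38. These 3 were called in the 8 libraries that are not low-mRNA (1.29, 0.68 and 0.53) and with limma-voom, and Tgfb1 also without any one library of day 3 (0.58). Il18, Il1rn and Il18bp lay at 0.31, -0.08 and -0.41.

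**Figure D4:**
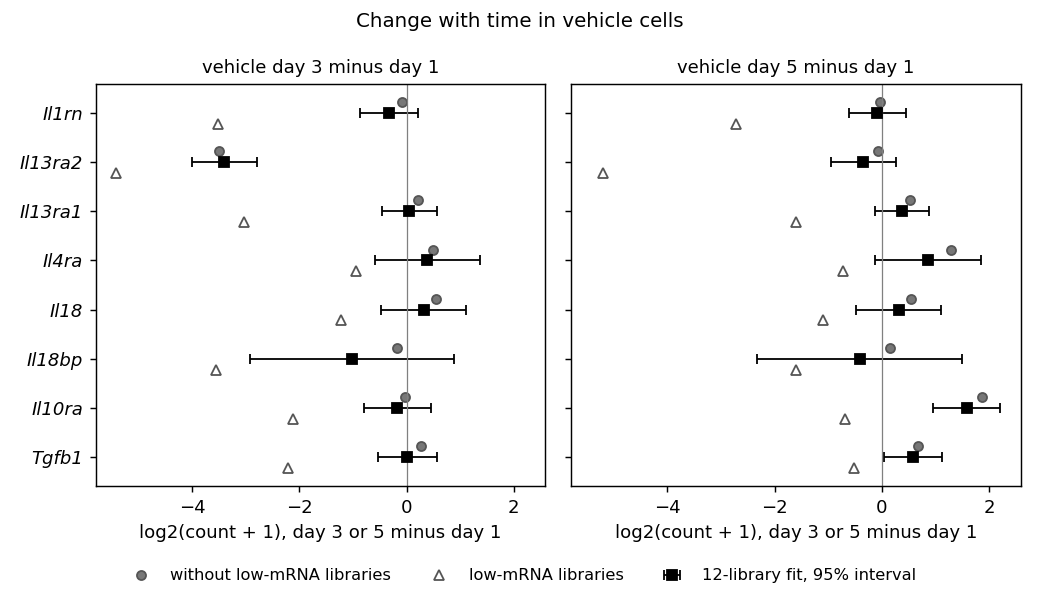
Vehicle day 3 (left) and day 5 (right) minus vehicle day 1 in log2(normalized count + 1). Squares with bars are the 12-library fit with its 95% interval, circles the library that is not low-mRNA and triangles the low-mRNA library; Il13ra2 lies at -3.40 at day 3 and Il10ra at 1.58 at day 5, with low-mRNA libraries to the left of the others.

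The genes around these members in their pathways were read from lists holding 55 distinct genes among those tested. For treatment, limma called 0 at each day, with 7, 13 and 10 at an unadjusted p under 0.05 at days 1, 3 and 5 and 5, 0 and 5 called by limma-voom. Of all 14715 genes, 689, 2113 and 1619 had an unadjusted p under 0.05 in limma, and limma-voom called 361, 156 and 872. In vehicle cells, 1 was higher and 5 lower at day 3, and 1 higher and 0 lower at day 5. Beside these, 0.87% of all genes were higher and 2.0% lower at day 3, and 1.62% and 1.31% at day 5. At an unadjusted p under 0.05 in either direction were 18 and 13 of the 55, and 2129 and 2683 of all 14715 genes. Limma-voom called 7 higher and 10 lower at day 3 and 17 higher and 0 lower at day 5, where over all 14715 genes it called 757 higher and 1109 lower, and 1568 higher and 1245 lower. The lists were chosen with results of these data known and their calls are not independent evidence. Levels of low-mRNA libraries given below are not comparable with those of day 1. Their median gene lay at -1.68 log2 units from day 1 for vehicle day 3 and at -1.23 for vehicle day 5. Each limma call named below from the lists was lost without the term for low-mRNA libraries. Those of Il1rap, Clec10a, Nfil3 and Tgfbr1 were also lost with a replicate block and without the filter on low values, and that of Il18rap without that filter. The median of the 55 was 0.05, 0.29 and 0.24 for treatment at days 1, 3 and 5, beside -0.04, 0.23 and 0.07 for all genes. For vehicle day 3 and day 5 it was -0.15 and 0.17, beside -0.08 and -0.09.

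Of 11 tested genes of the IL-1 family axis, vehicle cells of day 3 had 1 higher and 2 lower, and none was called for treatment at any day or for vehicle day 5 in limma. Il1rl1, the receptor for IL-33, went from 916.4 and 896.8 normalized counts to 382.1, and to 235.2 in the low-mRNA library (-1.43, adjusted p = 0.00604). Nlrp3, the inflammasome sensor upstream of IL-1β and IL-18 maturation, went from 642.2 and 614.9 to 220.3, and to 80.8 in the low-mRNA library (-1.57, adjusted p = 0.00689). Pycard, a gene of the same list, stayed at or under 1.8 normalized counts in all 12 libraries, and maturation of either cytokine was not measured. Il1rap, the co-receptor used by IL-1 and IL-33, went from 203.0 and 210.9 to 383.7, and to 54.4 in the low-mRNA library (0.87, adjusted p = 0.0483). Each of these calls was lost without either vehicle library of day 1 (-1.98 to -1.24 for Il1rl1 over all 12 fits without 1 library, -1.75 to -1.51 for Nlrp3 and 0.83 to 0.90 for Il1rap), and that of Il1rap also without either treated library of day 1 or vehicle replicate 1 of day 3.

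Il18rap, the accessory chain of the IL-18 receptor, was the called gene of 2 tested on the IL-18 axis. It fell in vehicle cells from 236.3 and 254.9 to 34.4 at day 3, and to 4.4 in the low-mRNA library (-3.27, adjusted p = 0.00667), and the call was lost without either vehicle library of day 1 (-4.66 to -2.80 over all 12 fits). At day 5 it held 194.2, and 7.1 in the low-mRNA library. The ligand-binding chain Il18r1 stayed at or under 9.5 normalized counts. The course of Il18rap in vehicle libraries, low at day 3 and in the low-mRNA library of day 5, had the same order as that of Il13ra2.

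Of 7 tested genes of IL-4 and IL-13 signalling, 0 were called in any comparison by limma. Stat6, the transcription factor of both cytokines, held 2125.2 and 2110.4 in vehicle cells of day 1 and 1924.9 and 1954.0 in treated cells. Il2rg, the common gamma chain, held 1417.0 and 1526.0 and 1385.2 and 1393.6. Both were thus far more abundant in counts than Il4ra. Genes known to rise with IL-4 or IL-13 in macrophages differed widely in level. Some were low: Arg1 reached at most 9.9 normalized counts, Mrc1 18.4, Ccl22 3.6 and Ccl17 1.8. Others were not: Klf4 held 542.3 to 1248.7 over all 12 libraries, Tgm2 167.4 to 514.3 and Egr2 47.0 to 368.8. Of 5 tested, Clec10a, a galactose-type lectin, was called as lower in vehicle cells at day 3 (-1.36, adjusted p = 0.0189). It went from 240.8 and 206.5 to 96.1, and to 14.7 in the low-mRNA library. That call was lost without any one of the 4 libraries of day 1 (-1.81 to -1.21 over all 12 fits). Most of the list went the other way: 3 of 5 were higher at day 3, not called, with a list median of 0.90 beside -0.08 for all genes. At day 5 all 5 were higher in the fit, none called, with a median of 0.88 beside -0.09.

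On the IL-10 axis, 1 of 10 tested genes was called, the leucine zipper factor Nfil3. In vehicle cells it went from 152.2 and 123.0 to 36.7 at day 3, and to 7.3 in the low-mRNA library (-2.23, adjusted p = 0.0337). The call held in 5 of the 12 fits that left out 1 library, with values from -3.31 to -1.87, and was lost without any library of day 1, vehicle replicate 2 of day 3 or either treated library of day 3. The accessory receptor chain Il10rb held 999.7 and 1031.4 at vehicle day 1 and 1846.8 at day 5 (0.59, adjusted p = 0.255), below the change of Il10ra in the same fit, a difference that was not tested. Of 18 genes of the TGF-beta axis, 1 was called: Tgfbr1, the type I receptor, rose in vehicle cells from 470.3 and 503.6 at day 1 to 1670.1 at day 5 (453.5 in the low-mRNA library; 1.56, adjusted p = 0.0164), a call lost without either vehicle library of day 1 or vehicle replicate 1 of day 5 (0.89 to 1.78 over all 12 fits).

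Among 7 tested genes for other antagonists, decoys and scavenging receptors, limma called 1, Il1rl1 as above, and none for treatment. Slpi, a secreted protease inhibitor, held 303.3 and 260.9 in treated and 61.3 and 38.6 in vehicle cells of day 1 (2.51, SE 0.64, adjusted p = 0.412). Ccrl2, an atypical receptor that binds chemerin, held 67.9 and 63.3 against 11.4 and 9.9 (2.52, SE 0.63, adjusted p = 0.375). At days 3 and 5 both genes were also higher in the treated library of each pair of a kind. Fitted differences were 2.455 and 3.32 for Slpi (adjusted p = 0.061 at day 5) and 1.67 and 1.68 for Ccrl2. The low-mRNA vehicle libraries held little of either, with 4.4 and 2.8 normalized counts of Slpi and 0.0 and 1.4 of Ccrl2. Neither gene was called for treatment at any day over all 12 libraries.

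**Figure D5:**
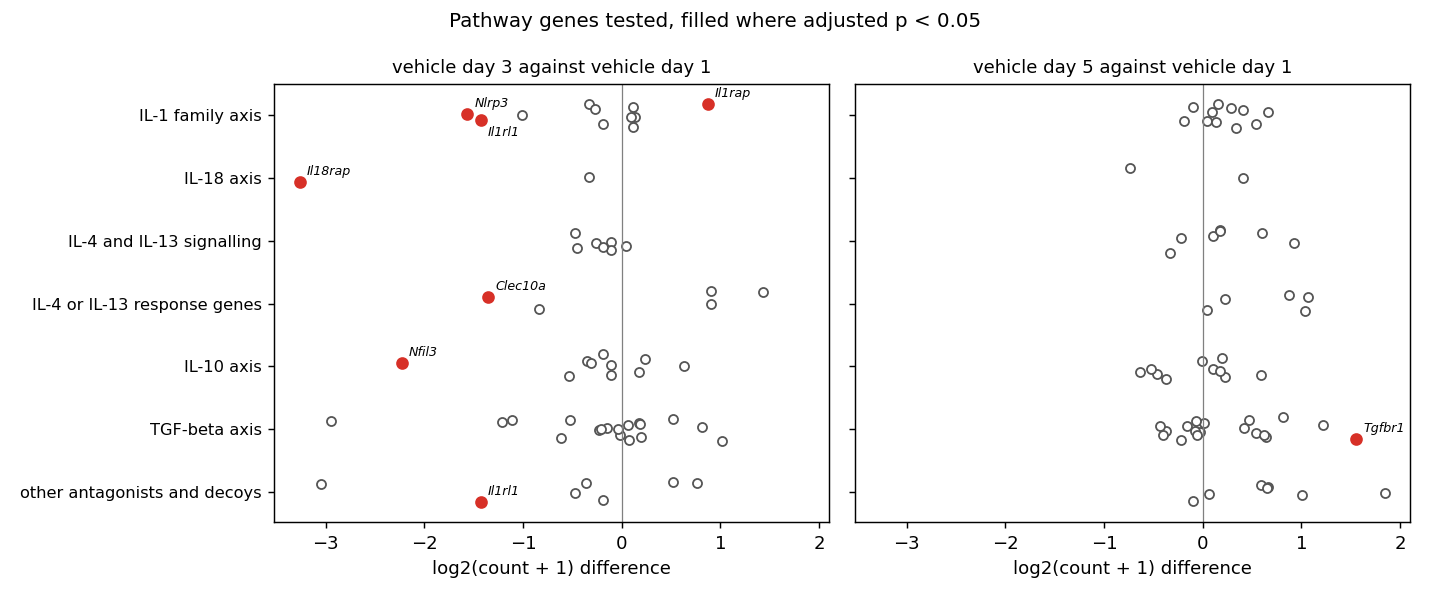
Log2 difference (horizontal) of each tested gene of 7 pathway lists (rows, spread vertically for legibility) for vehicle day 3 and day 5 against day 1. Filled symbols passed an adjusted p of 0.05; they are 6 distinct genes at day 3, with Il1rl1 in 2 lists, and Tgfbr1 at day 5.

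The genes whose levels ran most like a member's were taken as those with the highest Pearson correlation of log2 values over 12 libraries, which share the low-mRNA difference and are given as a description only. For Il13ra2 these were Amotl1 (r = 0.985, and 0.968 over the 8 libraries that are not low-mRNA), Cda (0.974 and 0.947), Spred3 (0.971 and 0.962), Ets2 (0.970 and 0.976) and Lamb2 (0.970 and 0.949). For Il1rn they were Abhd10 (0.983 and 0.940), Fabp4 (0.977 and 0.936), Tiparp (0.971 and 0.886), Layn (0.970 and 0.905) and Gm2895 (0.969 and 0.905). For Il10ra they were H2-Q4 (0.977 and 0.957), Tk2 (0.974 and 0.982), Hhex (0.972 and 0.957), Rab3d (0.970 and 0.992) and March1 (0.968 and 0.977). Between members, r over 12 libraries and over the 8 was 0.899 and 0.672 for Il13ra2 and Il1rn, 0.694 and -0.213 for Il13ra2 and Il13ra1, 0.787 and 0.850 for Il4ra and Il13ra1 and 0.908 and 0.903 for Tgfb1 and Il10ra.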

How the data were processed

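Groups and replicate numbers came from the titles. The submitters' processing notes name TopHat2, SAMtools, DESeq2 and build mm9, without versions; annotation, strand setting and counting step: not given in the sources used here. As deposited, the authors' table holds log2 values of a normalized count plus 8 (lowest value 3, worked out from the values); without the offset, 100% of values were whole multiples of 1 read, within 0.02 reads. The table holds 2 identifier columns that part after the first rows: its symbols matched the reference names of the `ensembl` column in 14822 rows and those of the other in 48, so the former was used. Of 24757 rows, 993 repeats were dropped.

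Genes with a mean of at least 10 normalized counts in at least 1 of 6 groups were fitted (14715 of 23764) with limma 3.58.1 (R 4.3.3, trended prior) on log2(normalized count + 1), with group means and a term at day 3 and at day 5 for libraries under 60% of reads on nuclear protein-coding genes (4 residual degrees of freedom). The term assumes that low-mRNA libraries are shifted alike in both arms, and vehicle day contrasts refer to the other kind. A fold on this scale understates changes of low genes. Alternatives were no such term, the 8 other libraries, a replicate block, the deposited scale, no filter, quantile normalization, limma-voom on recovered reads and each library left out; scaling to nuclear protein-coding reads was added after seeing the data. Named genes were the 8 members, up to 4 genes with the smallest p per list and comparison, and the 5 most correlated genes per member. Others named for their levels (Il1a, Il1b, Il1r1, Il10, Il18r1, Pycard, Arg1, Mrc1, Ccl17, Ccl22) were chosen after their values were seen. The members and lists were chosen with earlier results of these data known, and 1 gene of the lists is not reported here and was left out of their counts. Tables and figures used pandas 2.3.3 (Python 3.11.15) and matplotlib 3.10.9. Counting limits, such as that of 3 reads for a value of 0, cover counting error only.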

Additional observations from a re-analysis of the deposited data

How the results depend on the processing

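Members called for treatment at day 1, 3 and 5 and for vehicle day 3 and 5 were 1 each, and 0 for the difference between days. Without the term for low-mRNA libraries each of these was 0, and without the filter on low values they were 0 except vehicle day 3 (1). In the 8 libraries that are not low-mRNA they were 3, 1, 3, 1 and 4, with 1 for the difference between days (the added ones being Il1rn, Il13ra2, Il13ra1 and Il10ra for treatment and Il4ra, Tgfb1 and Il13ra1 for vehicle day 5), and with limma-voom 2, 1, 2, 1 and 4, with 2. Quantile normalization gave 2 at treatment day 1, 2 at day 5 and 2 for vehicle day 5, where it called 76, 379 and 1639 of all genes. The deposited log2 values and the scaling to nuclear protein-coding reads each gave 2 at treatment days 1 and 5. Over all genes the deposited values called 37 and 144 at those days, and the scaling called 42 and 297. Leaving out each library in turn gave 0 to 2 at treatment day 1, 0 to 4 at day 3, 0 to 2 at day 5, 1 to 2 for vehicle day 3, 0 to 2 for vehicle day 5 and 0 to 1 for the difference between days.

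With a replicate block, 0 members were called at treatment day 1 and 0 for vehicle day 5, and 1 each at treatment day 3, treatment day 5 and vehicle day 3. Deviations of same-numbered libraries correlated at 0.07 at day 1, 0.899 at day 3 and 0.897 at day 5, but at days 3 and 5 replicate 2 is the low-mRNA library in both arms, so number and kind of library cannot be told apart there and the term for low-mRNA libraries already separates the numbers. At day 1 the correlation was under the 0.1 asked of every pair, so the numbers were not taken to pair the samples. The block, which adds a term at day 1 alone, called 0, 4, 17, 176 and 104 genes where the fit with the low-mRNA terms alone called 6, 10, 60, 423 and 431.

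Vehicle values that were not called changed sign as follows. Without the low-mRNA term, day 3 gave Il13ra1 -1.41, Il4ra -0.22, Il18 -0.33 and Tgfb1 -0.97, and day 5 gave Il13ra1 -0.53 and Il18 -0.28. In the 8 libraries Il18bp at day 5 was 0.15. Fits that left out 1 library also changed signs: at day 3 Il13ra1 ran from -0.43 to 0.21, Il18 from -0.39 to 0.55 and Tgfb1 from -0.77 to 0.27, and at day 5 Il1rn from -0.22 to 0.042, Il13ra1 from -0.091 to 0.53, Il4ra from -0.43 to 1.29, Il18 from -0.36 to 0.53 and Il18bp from -2.10 to 0.15. The cause was not tested. All genes called at treatment days 1, 3 and 5 and vehicle days 3 and 5 numbered 844, 17, 855, 2898 and 4330 in the 8 libraries and 361, 156, 872, 1866 and 2813 with limma-voom. Few reads limit Il18bp at any setting.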
